A study of Mus musculus with 2 samples.

Results

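MicroRNA genes known from red and white blood cells were examined in whole newborn kidney. They are 7 of the 1973 microRNA genes with a row in the tables, chosen by name: the erythroid genes Mir451a, Mir144 and Mir486, and the leukocyte genes Mir223, Mir155, Mir146 and Mir150. The samples were kidneys of B6NCrl mice on postnatal day 0, with both kidneys of 1 pup in each library and 2 pups of the same pregnancy, named pup 1 and pup 2. No treatment or genetic change is given in the labels, sex was not collected, and both pups form 1 group, so no test between conditions exists. Levels are CPM, counts scaled to a library total of 1000000 over all counts on the strand of a named gene. The counts behind them numbered 5832192 in pup 1 and 3846704 in pup 2, and a mean ± SD is over these 2 pups.

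Together the 7 genes held 5694 counts in pup 1, 0.0976% of all counts, and 2966 counts in pup 2, 0.0771%. Of the 12 genes listed as kidney markers, 9 are known from nephron and epithelium. These 9 held 3.27% of counts in pup 1 and 3.29% in pup 2, with 8 of the 9 at 100 CPM or more in both pups. Of all 1973 genes, 217 reached a lower bar, a mean count of at least 100. The other 3 kidney markers, of the Hox clusters, mark position along the body rather than a cell type. They held 25.1% in pup 1 and 24.1% in pup 2. The 7 chosen blood cell genes formed a small fraction of the counted reads beside either part of the kidney list. Other genes linked to blood cells, described below, are not in that sum.

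MicroRNAs are cut from hairpin precursors and guide Argonaute proteins to messenger RNAs through the seed, bases 2 to 8 of the mature strand. The Mir144 and Mir451a hairpins come from 1 primary transcript that the erythroid factor GATA1 switches on, and miR-451a is the best known microRNA of red blood cells. Its precursor is too short for Dicer and is cut by Argonaute itself, so both microRNAs of this transcript mature by different routes. Mir223 is known from neutrophils and other myeloid cells, Mir155 from activated lymphocytes and macrophages, Mir146 (miR-146a) as a brake on NF-kB signalling, and Mir150 from mature lymphocytes.

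The mature strands of 5 genes are shown to let their seeds be compared, with the seed in capitals and each written from its 5′ to its 3′ end. RefSeq entries on build GRCm38.p6 were matched by symbol for 6 of the 7 genes.
miR-451a: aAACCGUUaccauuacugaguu
miR-144-5p: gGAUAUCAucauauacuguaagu
miR-144-3p: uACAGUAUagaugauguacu
miR-223-3p: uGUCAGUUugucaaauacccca
miR-155-5p: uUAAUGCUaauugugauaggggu
miR-146a-5p: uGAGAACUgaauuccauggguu
No seed shown here occurs in another of these strands. Among all mature mouse strands in that table, the miR-146a-5p seed was found in 1 other gene, Mir146b, and the other 5 seeds in none. Mir146b, whose product shares its seed with miR-146a, had 3 counts in pup 1 and 4 counts in pup 2, against 726 and 429 counts of Mir146. These counts are per hairpin gene, so the arms are not separated.

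The Mir451a hairpin is shown because its mature strand runs from the stem into the loop, at bases 17 to 38 of 72, given in capitals.
Mir451a hairpin: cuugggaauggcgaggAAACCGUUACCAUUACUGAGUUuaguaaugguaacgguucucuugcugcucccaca
On mm10 the hairpin of Mir451a (ENSMUSG00000070065.1) lies on the plus strand at chr11:78073170-78073241. The hairpin of Mir144 (ENSMUSG00000065401.1) lies 99 bases upstream on that strand, at chr11:78073005-78073070. The nearest protein-coding gene, Eral1, is on the other strand, 134 bases from Mir451a. Mir451b is annotated on the other strand at the place of Mir451a and is not listed in the tables. Opposite to Mir451a the read count was 0 in both pups.

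Mir451a had 1213 counts in pup 1 and 206 counts in pup 2, or 208 and 53.6 CPM. The level was higher in pup 1, 3.88-fold, with a log2 ratio of pup 1 over pup 2 of 1.96. The exact 95% counting interval of that ratio was 1.74 to 2.18. Each side of this ratio is 1 library, so it has no replicate check, and the interval covers counting error only. Mir451a stood at rank 140 of all genes in pup 1 and at rank 183 in pup 2.

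Mir144, made from the same transcript, had 188 counts in pup 1 and 165 counts in pup 2, or 32.2 and 42.9 CPM. Here pup 2 was higher. The log2 ratio of pup 1 over pup 2 was -0.41, with an interval of -0.72 to -0.10. In these 2 libraries the ratios of the neighbouring hairpins thus lay on opposite sides of 0. The Mir144 difference was short of 1.5-fold, and its interval too covers counting error only, with 1 library on each side. Mir144 ranked 203 in pup 1 and 193 in pup 2.

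The ratio of Mir451a to Mir144 within a library does not depend on how libraries are scaled. It was 6.45 in pup 1 (95% counting interval 5.53 to 7.56) and 1.25 in pup 2 (1.01 to 1.54). The ratio in pup 1 was 5.16 times that in pup 2, with an exact conditional interval of 3.96 to 6.73. Both intervals lay wholly above 1, so Mir451a gave more counts than Mir144 in each pup. The yield of reads per molecule can differ between microRNAs and is not known here, so these levels compare reads and not molecules.

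**Figure D1:**
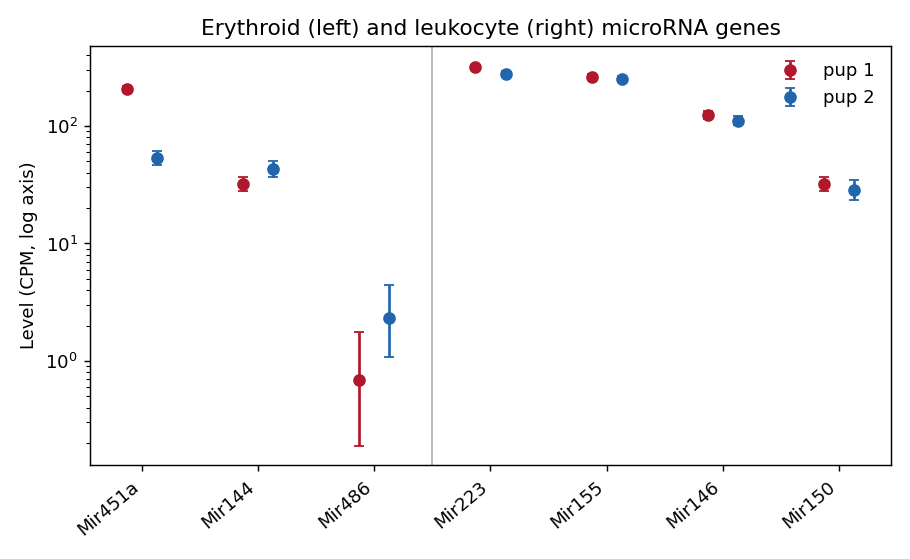
Level of each gene in CPM on a log axis, pup 1 in red and pup 2 in blue, with bars for the exact 95% Poisson interval of the count. Mir451a is the gene whose pups lie farthest apart among those with over 100 counts, at 208 and 53.6 CPM, while each leukocyte gene has its pups close together.

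Mir486, known from red cells and striated muscle, had 4 counts in pup 1 and 9 counts in pup 2, or 0.686 and 2.34 CPM. Its 95% Poisson intervals ran from 0.187 to 1.76 CPM in pup 1 and from 1.07 to 4.44 CPM in pup 2, and they overlap. Mir486 (ENSMUSG00000070084.3) lies on the plus strand at chr8:23142555-23142682, in an intron of Ank1, the gene of the red cell membrane protein ankyrin. Mir3107, which RefSeq also lists as mir-486b, lies on the opposite strand there and is not listed in the tables. A stretch of 22 bases of the Mir486 hairpin also occurs on its own other strand, so reads of that stretch can match more than 1 place and would be listed as multimapping. The Mir486 count therefore does not bound its level. None of the other 6 hairpins held such a stretch of 22 bases, and none shared one with a hairpin at another place. The longest match of the Mir451a hairpin to its other strand was 16 bases.

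Summed over the erythroid genes, pup 1 had 1405 counts, 0.0241% of all counts, and pup 2 had 380 counts, 0.00988%. The exact 95% binomial intervals were 0.0228% to 0.0254% in pup 1 and 0.00891% to 0.0109% in pup 2. Mir451a made up 86.3% of that sum in pup 1 and 54.2% in pup 2, and Mir144 13.4% and 43.4%. The sum gave a log2 ratio of 1.29 (1.12 to 1.45), and without Mir451a it turned to -0.46. The erythroid difference between the pups was thus that of 1 gene.

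Among leukocyte genes, Mir223 was the highest, with 1848 counts in pup 1 and 1077 counts in pup 2, or 317 and 280.0 CPM. Its log2 ratio was 0.18 with a counting interval of 0.07 to 0.29, which leaves out 0. Mir223 (ENSMUSG00000076066.1) lies on the plus strand at chrX:96242817-96242926, in an exon of the noncoding gene F630028O10Rik.

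Mir155 followed with 1527 counts in pup 1 and 970 counts in pup 2, or 262 and 252 CPM, and ranked 125 in each pup. Its log2 ratio was 0.05 (-0.06 to 0.17), so a difference beyond counting error was not detectable at this depth. Mir155 (ENSMUSG00000065397.1) lies on the plus strand at chr16:84714140-84714204, in an exon of Mir155hg, its noncoding host gene.

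Mir146 had 726 counts in pup 1 and 429 counts in pup 2, or 124 and 112 CPM. The log2 ratio was 0.16 (-0.02 to 0.33). Mir146 (ENSMUSG00000065601.1) lies on the minus strand at chr11:43374397-43374461, far from the Mir144 and Mir451a hairpins of that chromosome, and no other annotated gene overlaps it. Mir150, the lowest of this list, had 188 counts in pup 1 and 110 counts in pup 2, or 32.2 and 28.6 CPM. Its log2 ratio was 0.17 (-0.17 to 0.53). Mir150 (ENSMUSG00000065495.1) lies on the plus strand at chr7:45121757-45121821, also with no overlapping gene.

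Ratios among the leukocyte genes were close in both pups. Small differences between pups were common, with a median size of the log2 ratio of 0.11 over the 217 genes averaging at least 100 counts. Close ratios are therefore not particular to the leukocyte genes. Mir223 over Mir155 was 1.21 in pup 1 (1.13 to 1.30) and 1.11 in pup 2 (1.02 to 1.21). Mir223 over Mir146 was 2.55 in pup 1 and 2.51 in pup 2, and Mir223 over Mir150 was 9.83 in pup 1 and 9.79 in pup 2. The ratio in pup 1 divided by that in pup 2 had intervals of 0.975 to 1.22, 0.878 to 1.17 and 0.777 to 1.29 for these pairs, all of which include 1. Mir451a over Mir223, by contrast, was 0.656 in pup 1 (0.610 to 0.706) and 0.191 in pup 2 (0.164 to 0.222). Mir144 over Mir223 was 0.102 in pup 1 (0.0871 to 0.118) and 0.153 in pup 2 (0.129 to 0.181). Set against Mir223, whose own log2 ratio was 0.18, the erythroid hairpins kept their opposite directions. These ratios reuse the same counts, so they are not a second check.

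**Figure D2:**
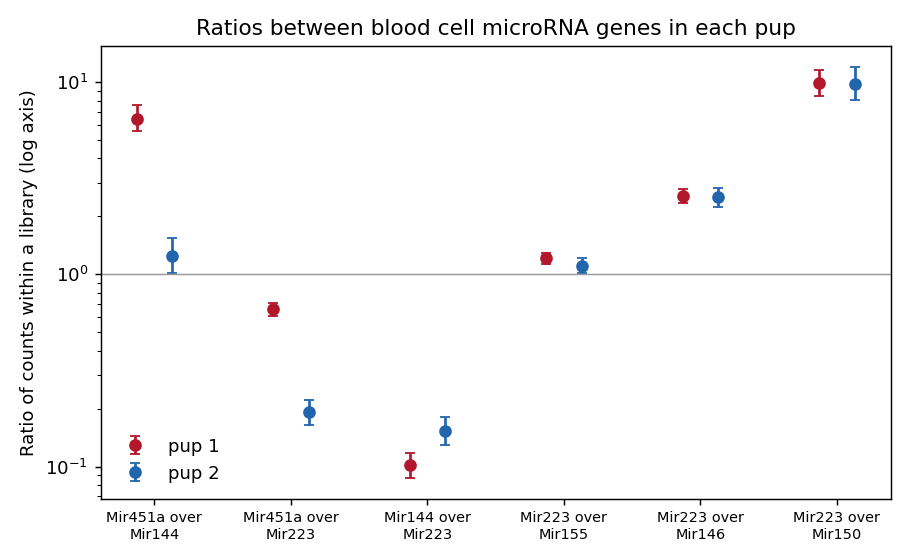
Ratio of the counts of 2 genes within a library, on a log axis, pup 1 in red and pup 2 in blue, with exact 95% counting intervals. Ratios among leukocyte genes lie close in the 2 pups, such as 9.83 and 9.79 for Mir223 over Mir150, while Mir451a over Mir144 is 6.45 in pup 1 and 1.25 in pup 2.

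Leukocyte genes summed to 4289 counts in pup 1, 0.0735% of all counts (exact interval 0.0714% to 0.0758%), and to 2586 counts in pup 2, 0.0672% (0.0647% to 0.0699%). The log2 ratio of these sums was 0.13 (0.06 to 0.20). Counts of the 4 leukocyte genes exceeded those of the 3 erythroid genes in both pups. The fold was 3.05 in pup 1 (2.87 to 3.24) and 6.81 in pup 2 (6.11 to 7.60). The erythroid sum leaves out any Mir486 reads listed as multimapping, and the yield of reads per molecule is not known. These folds therefore compare counted reads of 7 chosen genes, and their intervals cover counting error only. Among further genes linked to blood cells, described below, the erythroid-linked list held more counts, 0.973% in pup 1 and 1.03% in pup 2. The further leukocyte-linked list held 0.365% in pup 1 and 0.373% in pup 2, so the order depends on the genes listed. In whole tissue, fewer cells of a type and less RNA per cell cannot be told apart.

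By mean level the order was Mir223 (298 ± 26.1 CPM), Mir155 (257 ± 6.83), Mir451a (131 ± 109), Mir146 (118 ± 9.16), Mir144 (37.6 ± 7.54), Mir150 (30.4 ± 2.57) and Mir486 (1.51 ± 1.17). The places of Mir451a and Mir146 were not resolved, since Mir451a was above Mir146 in pup 1 and below it in pup 2. Mir144 and Mir150 differed in mean by 7.15 CPM, less than the SD of Mir144. In pup 1 both had 188 counts, while in pup 2 Mir144 was the higher, 1.5-fold (1.17 to 1.93). Other neighbours in the order differed by more than the larger SD of the pair.

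The ratios between pups were set against all genes whose counts averaged at least 10. Of these 324 genes, 7.72% differed at least 1.5-fold in CPM, 4.63% with pup 1 higher and 3.09% with pup 1 lower. Of the 6 blood cell genes that passed this count minimum, Mir451a was the 1 gene past 1.5-fold, and Mir486 did not pass the minimum. Over all 324 genes the median log2 ratio was 0.02. The medians were 0.77 over the 2 erythroid genes that passed, which lie on opposite sides of 0, and 0.17 over the 4 leukocyte genes.

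Mir451a had the largest ratio in size of all 324 genes. The other 24 genes past 1.5-fold were of low count, with mean counts from 10 to 58.5 and a median of 15.8. Among the 217 genes whose counts averaged at least 100, Mir451a alone passed 1.5-fold, and the 5th and 95th percentiles of the log2 ratios were -0.28 and 0.22. The leukocyte genes all fell inside that range. Mir144 fell below it, with 1.84% of those genes at a lower ratio. Counting intervals that left out 0 were common among all genes, at 34.9% of the 324 and 48.4% of the 217, so such an interval alone does not set a gene apart.

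**Figure D3:**
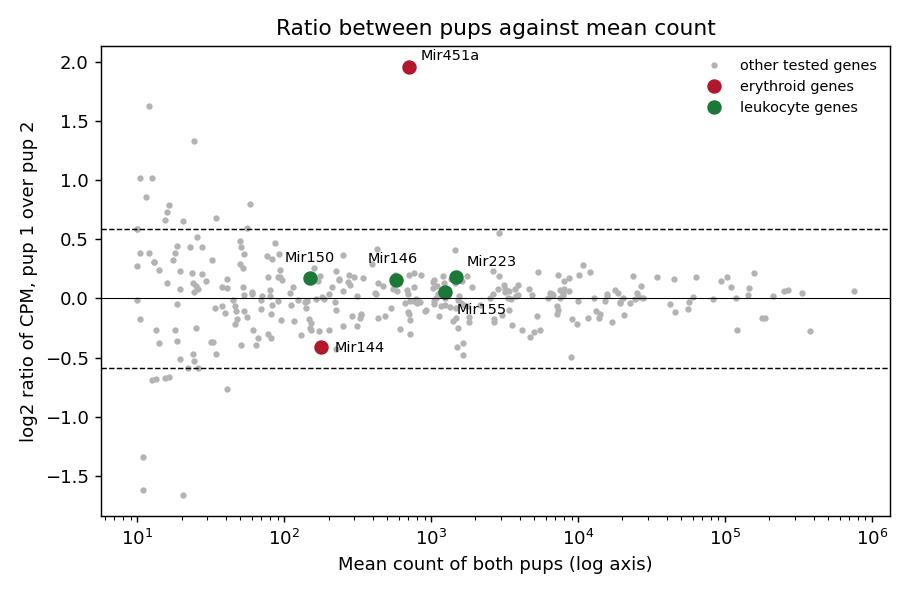
Log2 ratio of CPM of pup 1 over pup 2 against the mean count of both pups on a log axis, for the 324 genes averaging at least 10 counts, with dashed lines at 1.5-fold. Mir451a, at 1.96, stands alone among genes of its count, while Mir144 lies at -0.41 and the leukocyte genes between 0.05 and 0.18.

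Genes with the level or ratio nearest to a blood cell gene were named by a fixed rule, as a description over 2 libraries. In mean level, Mir451a stood between Mir30c-1 (138 ± 2.88 CPM) and Mir375 (129 ± 16.4), Mir144 between Mir7-1 (38.4 ± 0.169) and Mir449a (37.3 ± 0.144), and Mir486 between Mir3088 (1.55 ± 0.0118) and Mir7224 (1.51 ± 0.438). Mir223 stood between Mir381 (306 ± 11.9 CPM) and Mir194-2 (296 ± 18.5), and Mir155 between Mir125b-1 (258 ± 7.25) and Mir222 (257 ± 0.0049). Mir146 stood between Mir29c (119 ± 3.48 CPM) and Mirlet7c-1 (116 ± 11.3), and Mir150 between Mir370 (30.9 ± 2.67) and Mir193b (29.4 ± 0.345). These neighbours differed from the blood cell gene by less than the larger SD of the pair. By log2 ratio, the genes averaging at least 100 counts that came closest to Mir451a were Mir181b-2 at 0.56, Mir362 at 0.41 and Mir671 at 0.41. The nearest of them was still 1.40 log2 units away, so no gene of that count shared its ratio.

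Other genes linked to blood cells were looked at as lists, although many of them are also known from other tissues. Of 10 further erythroid-linked genes, 6 were matched to a row by symbol. Of these 6, 0 differed at least 1.5-fold in either direction, against 7.72% of all 324 tested genes. The share was 0.461% among the 217 genes averaging at least 100 counts, so a count of 0 is near the background. The median log2 ratio of the 6 was -0.05. Mir92a-1 did have a row, under the symbol Mir92-1, with a mean of 1616 CPM and a log2 ratio of 0.04. That row was not matched and is left out of the values of this list. Mir15a, which represses the progenitor factor Myb, had 4073 CPM in pup 1 and 4493 CPM in pup 2. Its cluster partner Mir16-1 had 2632 CPM in pup 1 and 2831 CPM in pup 2, and Mir16-2 had 685 and 731. Mir425 had 1414 CPM in pup 1 and 1383 CPM in pup 2. Mir221 and Mir222, which target the receptor Kit in erythroid progenitors, had 666 and 257 CPM in pup 1, and 632 and 257 CPM in pup 2. The log2 ratios of the 6 matched genes ran from -0.14 for Mir15a to 0.08 for Mir221, far from that of Mir451a. Together these 6 held 0.973% of counts in pup 1 and 1.03% in pup 2.

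Of 12 further leukocyte-linked genes, 11 have a row, 9 passed the count minimum, and 0 of the 9 differed at least 1.5-fold. The share was 7.72% of all tested genes and 0.461% of those averaging at least 100 counts, so 0 is again near the background. The median log2 ratio of the 9 was -0.06. Mir342, hosted by the gene Evl and known from lymphoid cells, had 1584 CPM in pup 1 and 1509 CPM in pup 2. Mir181a-1, known from thymocytes, had 1425 CPM in pup 1 and 1561 CPM in pup 2. Mir132, also known from neurons, had 326 CPM in pup 1 and 335 CPM in pup 2, and Mir31, known from regulatory T cells and epithelium, had 236 and 246. Mir511, hosted by the macrophage receptor gene Mrc1, had 30 counts in pup 1 and 19 in pup 2. Mir147, induced in macrophages by Toll-like receptors, had 15 counts in pup 1 and 12 in pup 2. Hairpins of Mir16-1, Mir16-2, Mir181a-1 and Mir181b-1 each share 22 bases with 1 hairpin elsewhere, so their counts leave out any reads listed as multimapping.

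**Figure D4:**
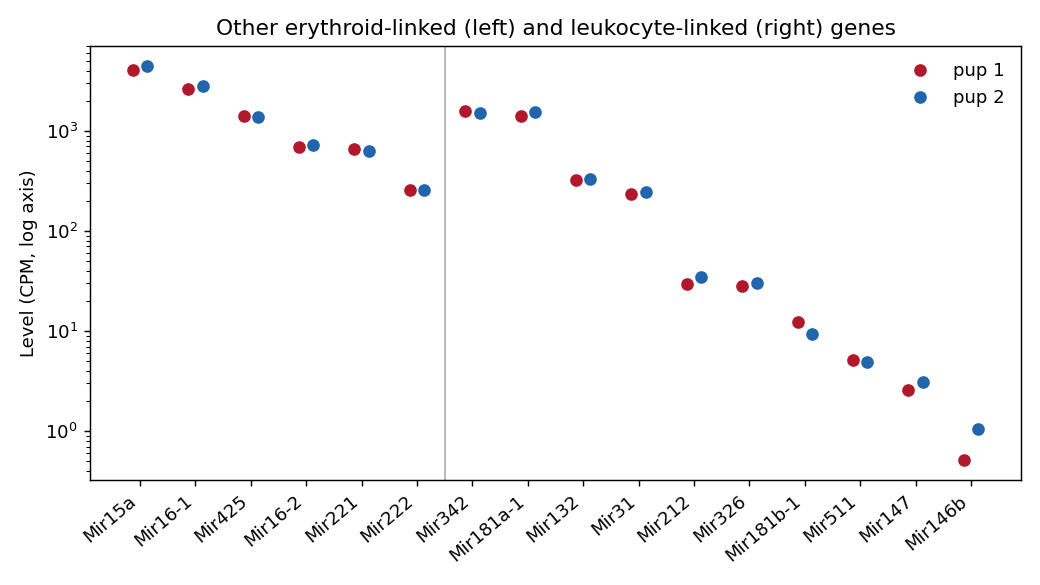
Level in CPM on a log axis of the further erythroid-linked and leukocyte-linked genes matched by symbol and with any count on their strand, pup 1 in red and pup 2 in blue. The pups lie close together at each gene above 100 CPM, from Mir15a at 4073 and 4493 CPM to Mir31 at 236 and 246 CPM.

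Mir142, expressed across blood cells, has no row, but the row of Mir142b on the opposite strand covers its place. Reads opposite to Mir142b numbered 2128 in pup 1 and 1423 in pup 2, equal to 365 and 370 CPM (367 ± 3.57), above each of the 7 genes. On the strand of Mir142b the count was 0 in both pups.

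Markers of other tissues were set beside the blood cell genes. The vessel wall genes Mir126a, Mir143 and Mir145a held 10.8% of counts in pup 1 and 12.7% in pup 2. The liver gene Mir122 had 332 counts in pup 1 and 170 counts in pup 2, or 56.9 and 44.2 CPM. Its log2 ratio was 0.36 (0.09 to 0.64), short of 1.5-fold. It lay above the 95th percentile of 0.22 among genes averaging at least 100 counts, as did Mir181b-2 at 0.56 and Mir362 at 0.41. Of the striated muscle genes, 5 of 6 have a row, and 4 of them were at 0 in both pups. Counts of 0 were common, as only 696 of all 1973 genes had any count in either pup. Mir206 had 30 counts in pup 1 and 17 in pup 2, for a list total of 5.14 CPM in pup 1 and 4.42 CPM in pup 2. Stretches of 22 bases in Mir133a-1, Mir133a-2 and Mir1a-1 also occur in hairpins elsewhere, so their counts of 0 and this total do not bound the muscle signal. Whether blood left in the vessels of the dissected kidneys, or tissue of another organ, had a part in the Mir451a difference was not tested.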

How the data were processed

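MicroRNA-seq of total RNA from newborn kidney gave 1 table for each of 2 libraries. The deposited tables hold raw counts per gene, which the authors made from reads aligned to mm10 and counted over annotation M4, per the deposited notes. The aligner is not named in the sources used here. The tables carry 3 count columns without a header. The column read from its values as the strand of the gene was used. Rows naming no gene were kept out of the totals. Multimapping reads took 30.3% of all reads in pup 1 and 31.0% in pup 2. A count of 0 allows up to 3 counts, 0.514 CPM in pup 1 and 0.780 CPM in pup 2.

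Identifiers were matched without version to GENCODE M21, which gave symbols for 1894 of 1973 genes, and sequences came from RefSeq. Counts were divided by the total over named genes. Log2 ratios set pup 1 over pup 2, with 0.5 added as prior count, and their 95% intervals are exact, given the sum of both counts (scipy 1.17.1). With 1 group no p-value is given, and since no molecular identifiers are named, intervals cover counting error only. The computation was tested on simulated counts that held counting error only, so that test does not cover variation between pups. Both tables differed by more than sampling noise, with a chi-square of 66.2 per degree of freedom, and were kept as 2 samples. Alternatives were TMM library sizes (edgeR 4.0.16), DESeq2 1.42.0 size factors, other totals, count minimums, prior counts and lists. Named genes were the 7 genes, their neighbours in level, the 3 genes closest in ratio to Mir451a, and listed genes of at least 100 CPM. Others were named after their values were seen. Members and lists were chosen with earlier results of these data known.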

Additional observations from a re-analysis of the deposited data

Results flagged for a closer look

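Signal outside the measured column was found at the row of Mir142b, whose opposite strand holds Mir142. In reads opposite to Mir142b, 2128 were counted in pup 1 and 1423 in pup 2, above the 3 counts that a count of 0 allows, against 0 counts on the strand of Mir142b in both pups.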

How the results depend on the processing

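The Mir451a ratio ran from 1.93 to 1.98 on the log2 scale over all alternatives of scaling, strand, total and prior count, and that of Mir144 from -0.43 to -0.39. Ratios of the leukocyte genes stayed above 0 under these alternatives, the lowest being 0.03 for Mir155. Leaving Mir451a out of the erythroid list turned its log2 ratio from 1.29 to -0.46 and raised the mean ratio of leukocyte to erythroid counts from 4.93 to 18.6, because that gene supplies most erythroid counts. With all reads as the total the mean erythroid share of 0.0170% was 0.00985%. The mean leukocyte share of 0.0704% was 0.0407% of all reads, 0.0833% with Mir10a left out of the total, and 0.107% with the Mir142 reads of the opposite strand added, an alternative chosen after seeing the data; all follow from the change of list or total. The 25 genes past 1.5-fold became 1 with a mean count of at least 100 and 281 with no filter on low counts, where 696 genes were tested. Leaving out each pup in turn gave erythroid shares from 0.00988% to 0.0241% and leukocyte shares from 0.0672% to 0.0735%. No paired analysis was possible because both libraries belong to 1 group. The counts of Mir486, 4 in pup 1 and 9 in pup 2, leave wide counting intervals, and reads of its hairpin can be listed as multimapping, so more depth alone need not bound its level.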
